A study of Mus musculus with 4 samples.

Results

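The genes described here are 9 genes of meiotic strand exchange, taken by symbol from the 55335 genes of the deposited count table: the recombinase gene Dmc1, the single-stranded DNA binding partners Meiob and Spata22, the loading factors Brca2 and Hsf2bp, the accessory pair Psmc3ip and Mnd1, and Rad51ap2 and Mcmdc2. All 9 passed the filter on low counts. RNA came from mouse testes at postnatal day 14, from 2 libraries labelled Znhit1_KO and 2 labelled CTRL, which were set against each other to learn how loss of ZNHIT1 bears on gene expression. ZNHIT1 belongs to the SRCAP chromatin remodelling complex, which exchanges H2A for the variant H2A.Z in nucleosomes. The sources used here name neither the strain, nor a Cre or other means of disruption, nor the alleles that the CTRL animals carry, and they do not say whether a library holds 1 animal or a pool. The labels call the replicates independent biological ones.

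Meiotic recombination starts with programmed DNA double-strand breaks, whose ends are trimmed to single strands that replication protein A covers. MEIOB and SPATA22 bind each other and act on this coated DNA. BRCA2, which HSF2BP binds in germ cells, helps to bring DMC1 onto the strands, and its filaments then search the homologous chromosome. The HOP2-MND1 complex, of which Psmc3ip encodes HOP2, helps DMC1 to invade the homologous duplex. MCMDC2 is a protein related to the MCM helicases that meiotic break repair needs. Rad51ap2 is a gene of the germ line. In the mouse testis this machinery works in leptotene, zygotene and early pachytene spermatocytes.

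All 9 are protein-coding genes, and no pair of them is adjacent. In mm10, Spata22 (ENSMUSG00000112920.1) spans chr11:73329741-73346044 on the plus strand with 1274 exonic bases in 9 exon blocks, and Psmc3ip (ENSMUSG00000019303.14) lies on the same chromosome at chr11:101091823-101095436. Meiob (ENSMUSG00000024155.8) and Hsf2bp (ENSMUSG00000002076.12) are both on chromosome 17, at chr17:24804289-24839788 and chr17:31944769-32036349. Dmc1 (ENSMUSG00000022429.11) is at chr15:79561497-79605109, Brca2 (ENSMUSG00000041147.10) at chr5:150522630-150570329, Mnd1 (ENSMUSG00000033752.7) at chr3:84087933-84155786, Rad51ap2 (ENSMUSG00000086022.1) at chr12:11456079-11462928 and Mcmdc2 (ENSMUSG00000046101.16) at chr1:9908638-9942085. Exonic length ran from 875 bases for Mnd1 to 13643 bases for Brca2, which is why levels are compared between genes only per length, as TPM.

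RefSeq (GRCm38.p6) gave a promoter for 7 of the 9, the exceptions being Meiob and Mcmdc2. The sequences of 3 are shown, 250 bases up to the RefSeq start. Spata22 and Rad51ap2 were chosen because their groups did not overlap in CPM, in opposite directions, and Dmc1 because it is the recombinase itself. The sequences are chr11:73329491-73329740 (plus strand), chr12:11455805-11456054 (plus strand) and chr15:79605110-79605359 (minus strand). Capitals mark matches, on either strand, to the MYB core AACNG or the E2F motif GCGGGAA.
Spata22: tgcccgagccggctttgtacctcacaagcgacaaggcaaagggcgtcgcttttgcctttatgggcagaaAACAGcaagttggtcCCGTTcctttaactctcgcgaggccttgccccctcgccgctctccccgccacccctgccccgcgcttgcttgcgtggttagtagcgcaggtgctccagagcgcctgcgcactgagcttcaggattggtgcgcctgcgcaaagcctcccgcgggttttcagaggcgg
Rad51ap2: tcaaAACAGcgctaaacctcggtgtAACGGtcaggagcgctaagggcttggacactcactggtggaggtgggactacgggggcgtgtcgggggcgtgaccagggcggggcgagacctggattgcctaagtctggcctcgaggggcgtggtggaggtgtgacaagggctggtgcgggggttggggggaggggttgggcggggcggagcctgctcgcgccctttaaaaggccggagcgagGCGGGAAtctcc
Dmc1: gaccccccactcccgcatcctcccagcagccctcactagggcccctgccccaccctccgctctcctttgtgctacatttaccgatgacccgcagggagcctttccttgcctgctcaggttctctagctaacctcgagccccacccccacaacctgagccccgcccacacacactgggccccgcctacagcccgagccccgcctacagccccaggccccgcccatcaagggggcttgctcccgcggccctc
The MYB core was present in 6 of the 7 promoters and in 74.2% of all 32851 RefSeq promoters over the same 250 bases. The E2F letters were present in the promoters of Brca2, Hsf2bp and Rad51ap2, against 3.82% of all promoters. The Hsf2bp window, chr17:32034509-32034758, lies inside the span of that gene given above, as its RefSeq start differs. The CRE core TGACG matched 2 times in Brca2, as overlapping matches on both strands, and was in 17.8% of all promoters. The STRA8 motif CNCCTCAG (6.42% of all promoters) and the RFX letters GTTGCC (10.4%) were found in none of the 7. The CpG count per 250 bases ran from 8 (Mnd1) to 22 (Spata22), above the median of 6 over all promoters.

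The deposited estimated counts summed to between 129531714 and 157790457 per library. The targeted gene was checked first: Znhit1 stood at 17.3 and 32.0 CPM in CTRL replicates 1 and 2 and at 3.15 and 2.14 CPM in Znhit1_KO replicates 1 and 2, so the transcript followed the labels, with some left in both Znhit1_KO libraries. Across all 24116 genes tested, edgeR's quasi-likelihood test called 0 genes at an adjusted p of 0.05, against 2590 at an unadjusted p under 0.05; DESeq2 called 1027 and limma-voom 0. The tissue label was checked against markers: Sertoli, Leydig, peritubular myoid, macrophage and endothelial markers were all detected beside germ cell genes, so the libraries hold somatic cells too, although the design text names germ cells. In such samples fewer cells of a type and less RNA per cell cannot be told apart.

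The 9 genes did not move as a block. In CPM, both Znhit1_KO values of Spata22 lay below both CTRL values and those of Rad51ap2 lay above. The other 7, Dmc1 and Brca2 included, overlapped between groups in CPM. Non-overlap downwards was found for 21.3% of all genes tested and upwards for 21.8%, so 1 of 9 in each direction is not above the background. EdgeR called 0 of the 9 over all genes (background 0%), and at an unadjusted p under 0.05 it found 1 lower and 0 higher, where 7.75% of all genes were lower, 2.99% higher and 10.7% either. The authors' deposited table marks 1 of the 9, Spata22, as lower, where it marks 3.22% of 25236 genes lower, and 0 as higher (0.277% of genes). The median log2 change of the 9 was -0.26, beside 0.03 over all genes tested; 7 changes were negative and 2 positive. Without Znhit1_KO replicate 1 the median was -0.09 and without Znhit1_KO replicate 2 it was -0.55.

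**Figure D1:**
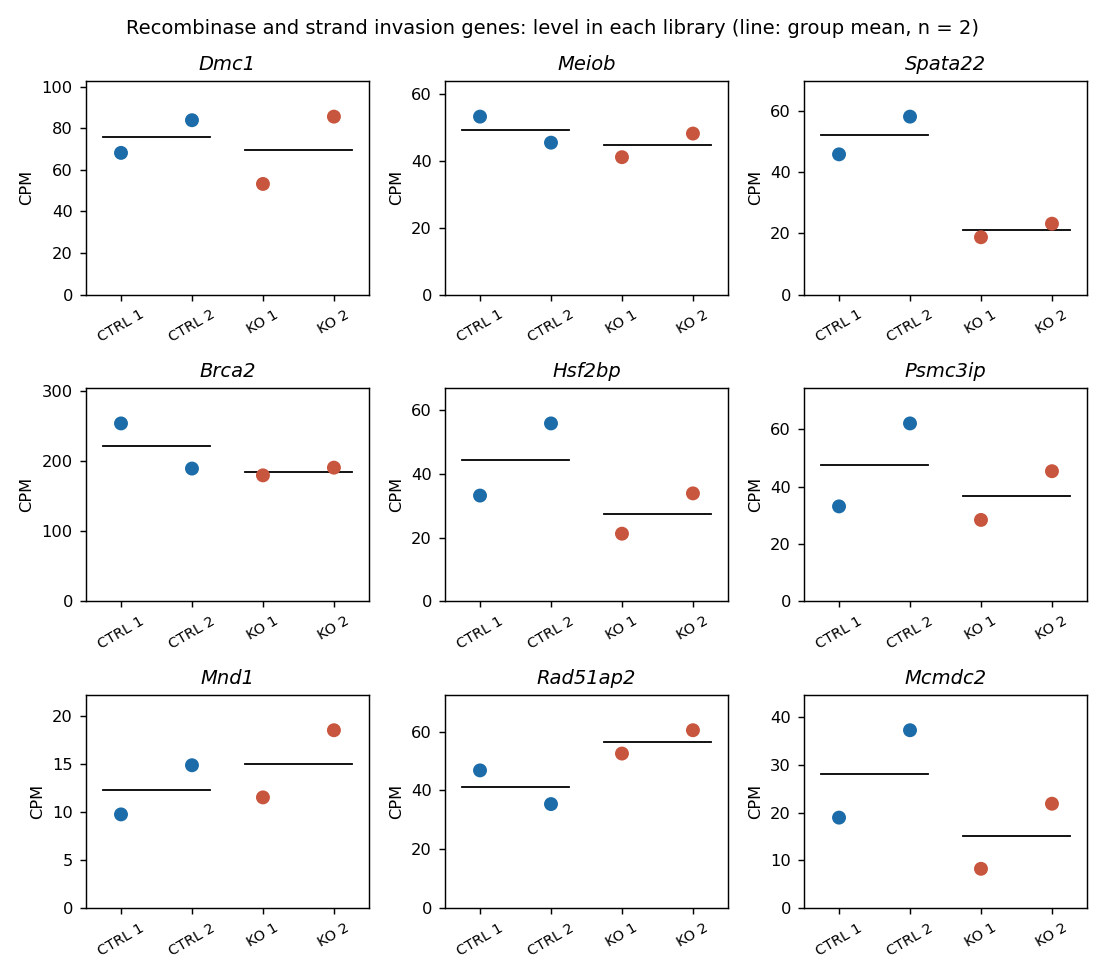
Level of each of the 9 genes in CPM (vertical axes, from 0, with their own range) in each of the 4 libraries; points are libraries and lines are group means, n = 2. The Spata22 points of Znhit1_KO, at 18.7 and 23.1 CPM, lie below both CTRL points, the Rad51ap2 points of Znhit1_KO lie above both, and the other 7 genes overlap.

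The recombinase gene Dmc1 stood at 68.2 and 83.9 CPM in CTRL replicates 1 and 2 and at 53.2 and 85.6 CPM in Znhit1_KO replicates 1 and 2. The lowest and the highest value both came from Znhit1_KO, so the groups overlapped completely. Its log2 change was -0.13 (SE 0.267), with an edgeR adjusted p of 0.896, which does not show that the level was the same: the replicates of Znhit1_KO differed by 0.686 on the log2 scale, more than the groups did. Without Znhit1_KO replicate 1 the value was 0.14 and without Znhit1_KO replicate 2 it was -0.55.

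The partners Meiob and Spata22 parted. Meiob stood at 53.2 and 45.4 CPM in CTRL replicates 1 and 2 and at 41.1 and 48.1 CPM in Znhit1_KO replicates 1 and 2, overlapping values with a log2 change of -0.14 (SE 0.178). Spata22 stood at 45.7 and 58.0 CPM in CTRL and at 18.7 and 23.1 CPM in Znhit1_KO, replicates 1 and 2. The group means were 51.9 ± 8.7 and 20.9 ± 3.13 CPM (SD, n = 2), a 2.48-fold lower level in Znhit1_KO. The log2 change of -1.31 (SE 0.212) was over 3 times either replicate gap, 0.344 in CTRL and 0.306 in Znhit1_KO. Its unadjusted edgeR p was 0.00128, and adjusted over all genes it was 0.264, so it did not pass. The targeted gene Znhit1, at a log2 change of -3.22, had the same edgeR adjusted p of 0.264. Not passing this test therefore does not show that a level was unchanged. In the authors' deposited table the Spata22 change is -1.31 (SE 0.266) with an adjusted p of 7.48e-05. DESeq2 as run here gave that same value for Spata22. DESeq2 called 3.67% of all genes lower. EdgeR also passed it without CTRL replicate 1 (log2 change -1.48, adjusted p of 0.0272) and not without any 1 of the other libraries; the adjusted p over all alternatives ran from 7.48e-05 to 0.506. Among all genes tested, 6.46% had a lower log2 change.

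The Spata22 locus holds a second annotated gene. Gm49340, a protein-coding model that begins at the same base and strand and runs on to position 73355913, shares sequence with Spata22, so how reads were assigned to each is uncertain. Gm49340 stood at 8.87 and 12.4 CPM in CTRL and at 5.69 and 7.95 CPM in Znhit1_KO, a log2 change of -0.64 (SE 0.299). With both summed the levels were 54.6 and 70.5 CPM in CTRL and 24.4 and 31.1 CPM in Znhit1_KO, still without overlap. The log2 change of the sum was -1.17 (SE 0.218), with an edgeR adjusted p of 0.264.

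The loading factor genes were both lower on average, with overlap in CPM. Brca2 stood at 254.3 and 189.8 CPM in CTRL replicates 1 and 2 and at 180.1 and 191.1 CPM in Znhit1_KO replicates 1 and 2. CTRL replicate 1 was the high library and the others lay close together. The log2 change was -0.26 (SE 0.188, edgeR adjusted p of 0.67) and -0.04 without CTRL replicate 1. Hsf2bp stood at 33.2 and 55.8 CPM in CTRL and at 21.2 and 33.9 CPM in Znhit1_KO. The groups overlapped only in that Znhit1_KO replicate 2 was slightly above CTRL replicate 1. This overlap depended on the unit. In the authors' TPM, Hsf2bp stood at 41.4 and 54.0 in CTRL and at 24.3 and 34.8 in Znhit1_KO, without overlap. The share of all genes without overlap in TPM was not computed. The Hsf2bp log2 change of -0.69 (SE 0.345, edgeR adjusted p of 0.546) was smaller than the 0.75 between the CTRL replicates, and was -0.27 without CTRL replicate 2.

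The genes of the HOP2-MND1 complex had changes of opposite sign. Psmc3ip stood at 33.1 and 62.1 CPM in CTRL replicates 1 and 2 and at 28.4 and 45.4 CPM in Znhit1_KO replicates 1 and 2, a log2 change of -0.37 (SE 0.375, edgeR adjusted p of 0.767). Mnd1 stood at 9.78 and 14.9 CPM in CTRL and at 11.6 and 18.6 CPM in Znhit1_KO, a log2 change of 0.29 (SE 0.338, edgeR adjusted p of 0.804). Both genes overlapped between groups, and in both the replicate gaps were larger than the change. Neither sign was stable: Psmc3ip stood at 0.16 without CTRL replicate 2 and Mnd1 at -0.13 without Znhit1_KO replicate 2.

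Rad51ap2 and Mcmdc2 lay near the upper and lower ends of the 9. Rad51ap2 stood at 46.8 and 35.4 CPM in CTRL replicates 1 and 2 and at 52.5 and 60.4 CPM in Znhit1_KO replicates 1 and 2. Both Znhit1_KO libraries were above both CTRL libraries, with a log2 change of 0.46 (SE 0.202). By edgeR's quasi-likelihood test p was 0.0686 unadjusted and 0.505 adjusted. The change exceeded both replicate gaps, narrowly for the 0.404 in CTRL. Spata22 and Rad51ap2 were the 2 of the 9 for which this held. The share of all genes tested for which it holds was not computed. Mcmdc2 stood at 19.0 and 37.3 CPM in CTRL and at 8.26 and 21.9 CPM in Znhit1_KO. Its log2 change of -0.90 (SE 0.547, edgeR adjusted p of 0.615) was the second lowest. Its replicates differed by 0.973 in CTRL and 1.41 in Znhit1_KO, the widest gaps among the 9, with replicate 2 the higher in both groups. Without CTRL replicate 2 the Mcmdc2 change was -0.33 and without Znhit1_KO replicate 2 it was -1.80.

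**Figure D2:**
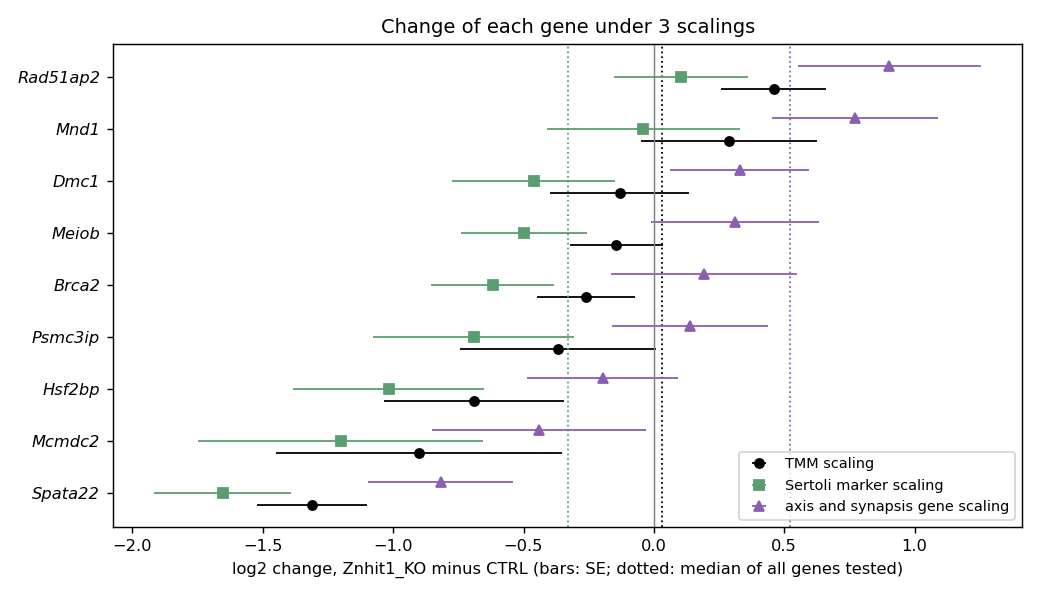
Log2 change of each gene (horizontal axis, Znhit1_KO minus CTRL, bars are SE) under TMM, Sertoli marker and axis gene scaling, with dotted lines at the median of all genes tested under each. Scaling shifts all genes together, to medians of 0.03, -0.33 and 0.52; Spata22 is lowest and Rad51ap2 highest under each of the 3.

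Scaling moved all 9 genes together and with them the sign of those near 0. Scaled on the summed counts of 14 Sertoli cell markers, the median of all genes was -0.33 and Mnd1 was at -0.04. The axis scaling used 15 genes, chiefly of the chromosome axis and synaptonemal complex but with Meikin among them. Under it the median of all genes was 0.52, and Dmc1, Meiob, Brca2 and Psmc3ip had positive values, from 0.14 to 0.33. Relative to the median of all genes, Spata22 was at -1.34, -1.33 and -1.34 under TMM, Sertoli and axis scaling. Rad51ap2 was at 0.43, 0.43 and 0.38 in that order, and Dmc1 at -0.16, -0.13 and -0.19.

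Per length, the order of the mean levels was taken in each group. In CTRL, the authors' TPM placed Spata22 first at 99.7 ± 7.37 TPM (SD, n = 2), with Psmc3ip at 97.1 ± 34.0 and Dmc1 at 86.9 ± 3.62 TPM, and each of these overlapped its neighbour. Meiob followed at 69.4 ± 14.1 TPM, not overlapping Dmc1, then Brca2 at 55.4 ± 18.9 and Hsf2bp at 47.7 ± 8.94 TPM, which overlapped their neighbours. Mnd1 (34.3 ± 6.94), Rad51ap2 (32.2 ± 9.29) and Mcmdc2 (26.2 ± 9.29 TPM) came last and overlapped each other in turn, with no overlap between Mnd1 and Hsf2bp. In Znhit1_KO, Dmc1 was first at 82.9 ± 25.5 TPM and Spata22 was at rank 7 with 41.6 ± 5.96 TPM, while Rad51ap2 was at rank 5 with 45.1 ± 4.17 TPM. Much of this order lay within the spread: Dmc1, Psmc3ip and Meiob overlapped in turn, as did Brca2, Rad51ap2, Mnd1 and Spata22. Neighbours without overlap in Znhit1_KO were Meiob and Brca2, Spata22 and Hsf2bp, and Hsf2bp and Mcmdc2. Over the 4 libraries, between 66.8% (Mcmdc2) and 90.0% (Psmc3ip) of the 25236 genes with TPM had a lower mean TPM than these genes.

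Ratios within partner pairs, which do not depend on the scaling, were taken from TPM. For Spata22 over Meiob, CTRL replicate 1 gave 1.19, CTRL replicate 2 gave 1.77, Znhit1_KO replicate 1 gave 0.634 and Znhit1_KO replicate 2 gave 0.669. Spata22 was thus the more abundant partner in both CTRL libraries and the less abundant in both Znhit1_KO libraries, a log2 change of the ratio of -1.16. The ratio of Psmc3ip to Mnd1 was 2.48 and 3.09 in CTRL and 1.83 in both Znhit1_KO libraries, a log2 change of -0.60 with no overlap, although each gene alone overlapped. For Hsf2bp over Brca2, CTRL gave 0.601 and 1.29 while Znhit1_KO gave 0.509 and 0.708. The groups overlapped in this ratio. The Hsf2bp to Brca2 change was -0.55, and close to 0 without CTRL replicate 2. In an exact two-sided permutation test over libraries, the first 2 of the 3 ratios had p = 0.333, the smallest that 2 libraries against 2 can give, and the last p = 0.667.

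**Figure D3:**
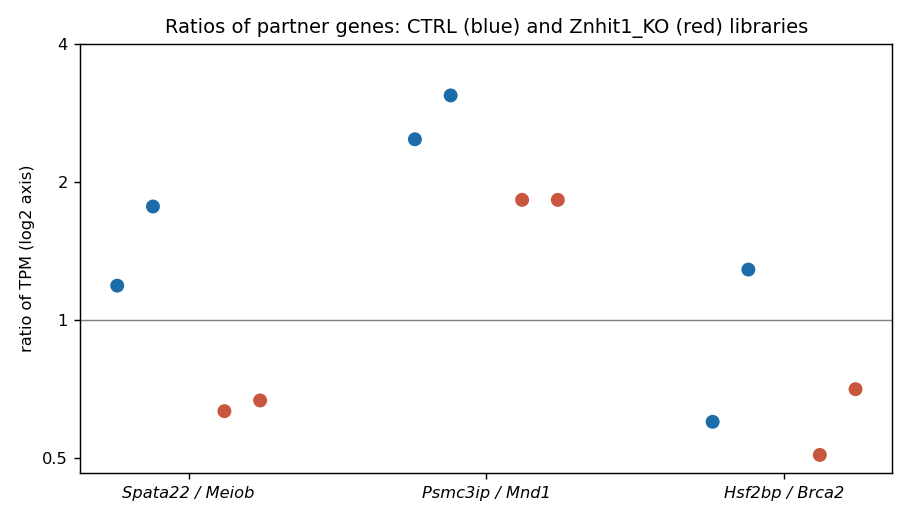
Ratio of the authors' TPM for 3 pairs of partner genes (log2 axis), each point 1 library, CTRL in blue and Znhit1_KO in red, replicate 1 left of replicate 2. Spata22 to Meiob is above 1 in both CTRL libraries and below 1 in both Znhit1_KO libraries, and Psmc3ip to Mnd1 does not overlap between groups.

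Much of the spread of these genes lay within groups. In Znhit1_KO all 9 were higher in replicate 2 than in replicate 1, and in CTRL 6 were, namely Dmc1, Spata22, Hsf2bp, Psmc3ip, Mnd1 and Mcmdc2. Replicate 2 was above replicate 1 in both groups for 36.9% of all genes tested. The share for each group alone was not computed. Between the CTRL libraries the folds of these 6 ran from 1.23 (Dmc1) to 1.96 (Mcmdc2), and between the Znhit1_KO libraries from 1.24 (Spata22) to 2.65 (Mcmdc2). Meiob, Brca2 and Rad51ap2 were instead lower in CTRL replicate 2, at 0.854, 0.746 and 0.756 of replicate 1. Relative to the 4 libraries, the mean log2 CPM of the 9 came to 0.016 and 0.33 for CTRL, and to -0.448 and 0.102 for Znhit1_KO, so that Znhit1_KO replicate 2 lay above CTRL replicate 1. The difference of the group means was -0.35 (exact two-sided permutation p = 0.667), and it was -0.07 without Znhit1_KO replicate 1 and -0.62 without Znhit1_KO replicate 2.

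The other genes of strand exchange form a list of 26, with recombinase paralogs, the replication protein A subunits, mediators and filament regulators. EdgeR called 0 of them, as it called 0 of all genes tested. At an unadjusted p under 0.05, where 7.75% of all genes tested were lower, it found 4 of the 26, all lower. These were Rad51b and Rad51c, paralogs that assist filament formation, at log2 changes of -0.79 (SE 0.294) and -0.65 (SE 0.178), the helicase gene Helq at -0.63 (SE 0.186) and the translocase gene Rad54l at -0.52 (SE 0.195). Of the 26, 22 had a negative change. Without overlap, 15 were lower, where 21.3% of all genes tested were. The mediator gene Sfr1, at 0.13 (SE 0.145), was the 1 higher without overlap, where 21.8% of all genes tested were. The median of the 26 was -0.18. The authors' deposited table marks 0 of the 26, where it marks 3.22% of all its genes lower and 0.277% higher.

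Binding partners of the 9 in this list had values close to 0 or modestly negative. The BRCA2 partner genes Palb2 and Sem1 had log2 changes of -0.30 (SE 0.172) and 0.05 (SE 0.237). 4930432K21Rik, which encodes BRME1, the partner of HSF2BP, stood at 31.2 and 36.5 CPM in CTRL and at 24.8 and 25.3 CPM in Znhit1_KO, a change of -0.43 (SE 0.175) without overlap. Rpa1, Rpa2 and Rpa3, the subunits of the complex that MEIOB and SPATA22 work with, were at -0.20 (SE 0.157), -0.12 (SE 0.178) and -0.21 (SE 0.221). None of these passed over all genes. Spata22 lay below and Rad51ap2 above every one of the 26.

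**Figure D4:**
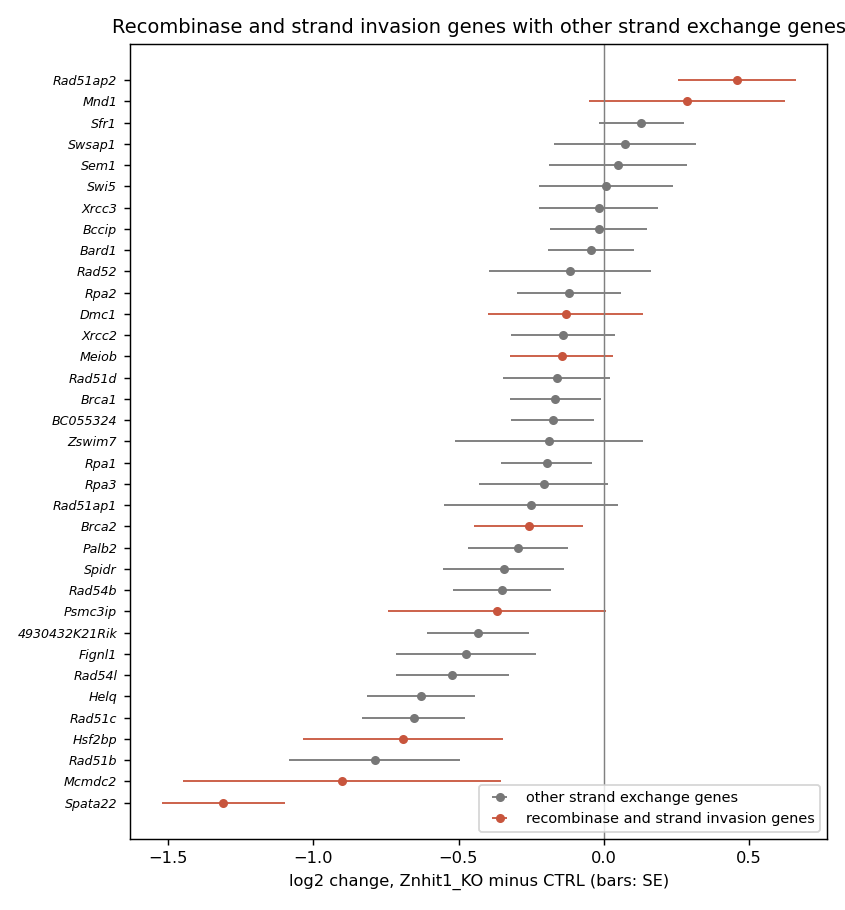
Log2 change (horizontal axis, Znhit1_KO minus CTRL, bars are SE) of the 9 genes (red) and the 26 other strand exchange genes (grey), ordered by value. Red points hold both ends of the order, from -1.31 for Spata22 to 0.46 for Rad51ap2, and Dmc1 lies between them near Rpa2.

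Genes acting before and after strand exchange, and markers of stages and cell types, are given for comparison. The 14 genes of break formation and resection had a median log2 change of -0.43, with 10 lower without overlap, and the 12 crossover genes tested of 13 had a median of -0.63, with 9 lower without overlap. The 15 genes of the axis and synapsis list, Meikin among them, had a median of -0.46, with 7 lower without overlap. Over all genes tested, 21.3% were lower without overlap. The authors' deposited table marks 2 of the crossover genes as lower, Rnf212 at a log2 change of -1.18 and Ccnb1ip1 at -1.75. It marks 1 gene of the axis list as lower, Meikin at -2.43, and 0 of the break formation list, beside 3.22% of all its genes. Taking the mean of the 9 genes minus that of the crossover list, CTRL replicates gave -0.28 and -0.08 and Znhit1_KO replicates gave -0.021 and 0.381, a difference of 0.36. In an exact two-sided permutation test this had p = 0.333, the smallest possible, and an adjusted p of 0.458 over 11 such lists. Against the break formation list the difference was 0.06 (exact permutation p = 1) and against the axis list 0.20 (exact permutation p = 0.333).

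The marker counts without overlap stand beside 21.3% of all genes tested downwards and 21.8% upwards. Pachytene spermatocyte markers, a list chosen like the others with earlier results of these data known, separated the groups. Of 17 markers, 16 were lower without overlap, and the median log2 change was -1.57. Their summed level was 1915 to 3897 CPM in CTRL and 988.4 to 1453 CPM in Znhit1_KO. The authors' deposited table marks 11 of the 17 as lower, beside 3.22% of all its genes. All 14 Sertoli markers had a positive change, 10 of them without overlap, with a median of 0.41. Their summed level, of which Clu was the largest part, was 6837 to 7131 CPM in CTRL and 8317 to 9686 CPM in Znhit1_KO. Of 8 Leydig cell markers, 7 had a positive change and 5 were higher without overlap, with a median of 0.41. Their summed level was 173.6 to 175.6 CPM in CTRL and 235.7 to 250.4 CPM in Znhit1_KO. The largest part of that sum was Nr5a1, at 133.5 and 112.1 CPM in CTRL and at 174.9 and 149.3 CPM in Znhit1_KO. The sum without Nr5a1 was not computed. The authors' deposited table marks 2 of the 8 Leydig markers, Cyp11a1 and Cyp17a1, as higher, where it marks 0.277% of all its genes. All 8 macrophage markers had a positive change, 4 without overlap, with a median of 0.69 and summed levels that overlapped, 26.2 to 41.7 CPM in CTRL and 40.2 to 65.9 CPM in Znhit1_KO. In mean log2 CPM, the difference between the groups was 0.90 for Leydig, 0.67 for macrophage and 0.41 for Sertoli markers. The 6 endothelial markers had a median of 0.26 with 1 higher without overlap, and the 5 peritubular myoid markers a median of -0.06 with 0 free of overlap. The 12 spermatogonia markers had a median of 0.02 and a summed level of 908.8 to 962.9 CPM in CTRL and 952.4 to 1000.0 CPM in Znhit1_KO. None of the markers of these lists was at 0 in any library, though the pachytene list member Acrv1 stayed at or below 0.108 CPM. Against the pachytene list the same quantity gave -0.334 and -1.07 for CTRL, and 0.773 and 0.633 for Znhit1_KO, a difference of 1.41 (exact permutation p = 0.333). The part of cell composition in the values of Spata22 and the other 8 genes was not tested.

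**Figure D5:**
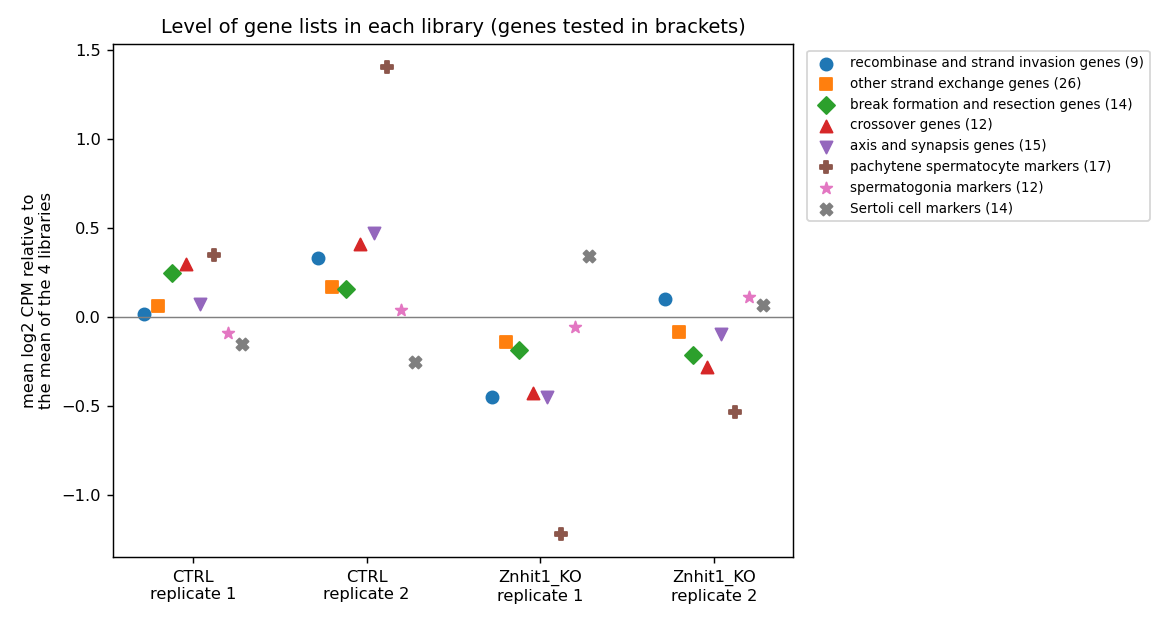
Mean log2 CPM of each list relative to the mean of the 4 libraries (vertical axis), by library, with the number of genes tested in brackets. The 9 genes run from -0.448 to 0.33 and overlap between groups, while pachytene markers run from -1.22 to 1.40 and do not.

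The genes whose profile over the 4 libraries was closest to the mean profile of the 9 were Cops9, Mark1, Cep112, Ovol1 and Atr, among 11413 genes searched. Likeness was the root mean square difference of centred log2 CPM over 4 libraries, which was 0.0241 for Cops9 and 0.0367 for Atr. Atr, a checkpoint kinase gene, stood at 630.5 and 822 CPM in CTRL and at 486.6 and 711.5 CPM in Znhit1_KO. Over so few libraries many genes lie close to any profile.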

How the data were processed

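mRNA was sequenced from 4 mouse testis libraries, 2 per group, and columns were matched to libraries by name. The submitters' processing notes name the build mm10 and, with no role or order, DESeq2 1.38.3, StringTie 2.2.1, HISAT2 2.2.1 and cutadapt 2.5. Annotation and strandedness are not stated there. The whole numbers in the deposited gene table sum, in each library, to more than the 40000000 reads stated as a minimum, and 1109 genes stood at 4 in CTRL replicate 1 against a mean of 736 at 3 and 5. They were taken as the authors' estimated counts, and intervals from them would be too narrow. For 25236 genes a table deposited by the authors adds TPM (per length and library total), a mean normalised signal, log2 fold changes with SE, a Wald score, and raw and adjusted p-values.

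Of 55335 genes, 24116 passed filterByExpr. EdgeR 4.0.16 (R 4.3.3) fitted them by quasi-likelihood (glmQLFit and glmQLFTest; TMM, genotype only, Benjamini-Hochberg adjustment at 0.05 over all genes). SEs were taken from the F statistic; log2 CPM used a prior count of 2. A biological coefficient of variation of 0.349 was estimated over all genes. DESeq2 1.42.0 and limma-voom 3.58.1, other scalings, no filter, a replicate block and leaving out each library were alternatives. Positions are from GENCODE M21, in which all 9 genes have the same identifier and version, and promoter sequences from RefSeq (GRCm38.p6). The 9 genes and the lists were chosen with earlier results of these data known. One gene of the strand exchange list and the ratio that used it are not reported here. Named were the 9 genes, Znhit1, members of the lists, and the 5 genes of most similar profile with at least 5 CPM on average. Gm49340, Mlx, Rrp1b and Snhg6 were named after their values were seen. Equal values were found for 2.89% of detected genes between CTRL replicates and 3.0% between Znhit1_KO replicates, so no library was counted as a duplicate.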

Additional observations from a re-analysis of the deposited data

How the results depend on the processing

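EdgeR called 0 genes under the scalings tried and without the filter on low counts, limma-voom called 0, and 1027 genes were called by DESeq2 (925 lower). Leaving out 1 library gave between 0 and 754 called genes, the higher count without CTRL replicate 1. Of the 9 genes, DESeq2 called 1 (Spata22), and leaving out 1 library gave 0 to 1, Spata22 without CTRL replicate 1. The replicate numbers are shared between groups but nothing in the labels pairs the libraries; deviations of the replicate 1 libraries from their group means correlated at 0.421 over genes. With the replicate number as a block, edgeR called 2737 of the 24116 genes tested, 1923 of them lower, and 3 of the 9. These 3 were Spata22 at a log2 change of -1.31 (edgeR adjusted p of 0.000869), Hsf2bp at -0.68 (0.011) and Mcmdc2 at -0.98 (0.00948). The median of the 9 was -0.62 with Sertoli scaling and 0.19 with axis scaling, where the medians of all genes were -0.33 and 0.52. Signs turned for Mnd1 with Sertoli scaling (-0.040) and with axis scaling for Dmc1 (0.33), Meiob (0.31), Brca2 (0.19) and Psmc3ip (0.14), by the construction of those scalings. With 1 library left out the ranges were -0.55 to 0.14 for Dmc1, -0.77 to 0.16 for Psmc3ip and -0.13 to 0.62 for Mnd1, and Dmc1 was at 0.03 without CTRL replicate 2. Spata22 stayed negative (-1.65 to -0.82) and Rad51ap2 positive (0.10 to 0.90) under all alternatives run. Fits without 1 library assume that the lone library varies like the others. The partner ratios and the differences from other lists, each with its permutation test, the promoter motifs, the sum of Spata22 and Gm49340, and leaving out libraries for the ratios and the mean of the 9 were chosen after seeing the data. Estimated counts do not give the reads behind a value, so what depth limits was not tested.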

Other observations

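Besides Gm49340 at Spata22, 3 of the 9 genes overlap a neighbouring gene of the opposite strand that holds many reads, which matters as the strandedness is not given. Hsf2bp overlaps Rrp1b at its 5' end, and Rrp1b had estimated counts of 8006 and 8196 in CTRL and 8254 and 8056 in Znhit1_KO. Psmc3ip overlaps the 3' end of Mlx (2636 and 2469 in CTRL, 3196 and 2386 in Znhit1_KO), and Mcmdc2 overlaps Snhg6 (829 and 705 in CTRL, 1106 and 864 in Znhit1_KO). The part of shared reads in the values of these genes was not tested.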
